A study of Drosophila melanogaster with 12 samples.

Results

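The experiment described here compared mRNA levels in the larval central nervous system (CNS) of Cp190KO mutants with those of a wildtype (WT) control of their own. Its 6 libraries were chosen from the 12 RNA-seq libraries of the series by their labels, and consist of 3 WT libraries of strain w1118 and 3 libraries labelled Cp190KO. Cp190[KO] animals carried 2 independent knockout alleles in trans, in which the open reading frame of Cp190 was replaced by a DsRed marker gene. They were zygotic mutants, so Cp190 product laid down by the mother was not removed. CNSs were dissected at the third larval instar from animals raised at 25 °C, and 60 CNSs were pooled for each replicate. Poly(A) RNA was made into strand-specific libraries, and the deposited values are counts of reads on 17510 genes. WT and mutant were different strains, so effects of the Cp190 alleles and of other differences between the strains cannot be told apart. The study's methods call its replicates biological.

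Cp190 is a zinc finger and BTB domain protein of Drosophila that binds DNA together with insulator proteins such as CTCF and Su(Hw). It is found at many gene promoters and at many boundaries between contact domains, the stretches of chromosome that fold onto themselves. The larval CNS contains neural stem cells, neurons and glia, and the comparison asks which genes need zygotic Cp190 for their usual level in this tissue.

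The Cp190 gene itself did not separate the groups. Cp190 (FBgn0000283, minus strand of chromosome 3R, 15270432 to 15275241 in dm6) was counted at 47.4, 24.6 and 39.4 CPM (the normalized count, scaled to library size) in the WT libraries. It was counted at 40.9, 30.7 and 24.3 CPM in the libraries labelled Cp190KO. The groups overlapped, with a log2 fold change of -0.22 (SE 0.295, adjusted p = 0.81 in edgeR's quasi-likelihood test). The annotation places 3291 of the 4293 exonic bases of Cp190 in the coding sequence, and 1002 bases, or 23.3%, outside it. The mean of the libraries labelled Cp190KO was 86.1% of the WT mean. Where in the gene the reads lay was not examined, since only counts per gene were used. All directions below therefore rest on the labels, and every one of them would be reversed if the labels of the 2 groups were exchanged. The knockout was designed with a guide RNA near each end of the open reading frame, and both guides are shown because they define the change that Cp190 counts did not show. They are given 5′ to 3′ as the study's oligo list has them, without the cloning overhang, and no base is marked by capitals. The target gene lies on chromosome 3R, and the position of each guide in the genome was not looked up here.
Cp190 guide near the start codon: ccaagcacacagcaata
Cp190 guide near the stop codon: ttagtgcggcggcgaagg

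Each of these 6 libraries held 16126996 to 21522453 reads on genes. A count of 3, taken as the smallest a library can show, is 0.141 to 0.185 CPM here, and covers counting error only. The libraries labelled Cp190KO differed more among themselves than the WT libraries did. Replicate 3 had a count on 10134 genes and only 375 genes with 1 to 3 counts, against 11573 to 12350 and 1738 to 1992 in the other 5 libraries. Replicates 1 and 2 stood apart by gene length. The median level of the fifth of tested genes with the longest exonic sequence, relative to that of the fifth with the shortest, deviated from the 6-library mean by 0.71 (log2) in replicate 1 and by -0.71 in replicate 2. In WT these deviations were between -0.39 and 0.13. The first principal component held 43.0% of the variance and separated the groups, and the second held 35.2% and separated replicate 2 labelled Cp190KO from replicate 1.

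Of the 17510 genes, the 8599 that reached 1 CPM in 3 or more of the 6 libraries were tested. In libraries labelled Cp190KO 119 genes were higher (1.38% of those tested) and 88 were lower (1.02%), at an adjusted p under 0.05 and a fold change over 1.5. These genes are called here. The 3 libraries of one group lay above the 3 of the other for all 207 of them, and for 19.8% of all tested genes (9.87% higher and 9.92% lower). The median log2 fold change over all tested genes was 0.08. Most called changes were large. A change over 4-fold was fitted for 69 of the higher and 52 of the lower genes. Many concerned genes that were nearly silent on one side: 52 of the higher genes had a WT mean under 1 CPM, and 29 of the lower genes had a mean under 1 CPM in libraries labelled Cp190KO. Among the higher genes 47 entered the test only through the libraries labelled Cp190KO, and 22 of the lower genes only through WT, so these had to differ. The fifth of genes with the lowest mean level held 62 of the higher and 38 of the lower genes, and the fifth with the longest exonic sequence held 5 and 4. Without replicate 3 labelled Cp190KO 64 genes were higher (0.744%) and 51 lower (0.593%), and 107 of the 207 called genes were still called. Without replicate 2 labelled Cp190KO 262 genes were higher and 151 lower. DESeq2, run as an alternative at the same thresholds, called 2.88% of genes higher and 2.23% lower, and its calls included all 207. When each of the 6 libraries was left out in turn, 22 higher and 22 lower genes were called every time.

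**Figure D1:**
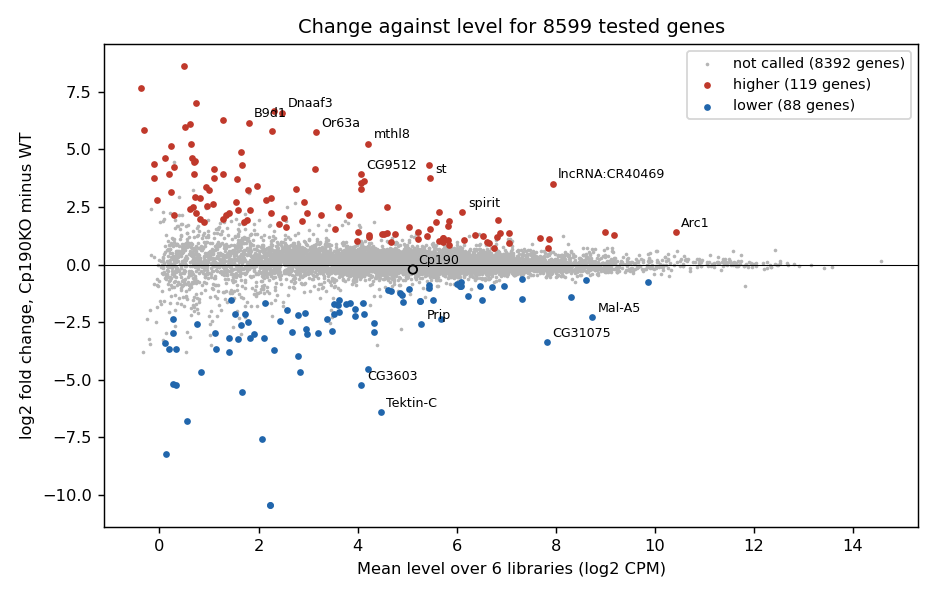
Mean level over the 6 libraries (log2 CPM, x axis) against log2 fold change, Cp190KO minus WT (y axis), for the 8599 tested genes. Red points are the 119 genes higher in libraries labelled Cp190KO, blue points the 88 lower genes, and grey points the rest. The ring marks Cp190, which lies at -0.22 among the genes not called.

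The gene lists below describe the functions that rose or fell, and the share of all tested genes that were higher (1.38%) or lower (1.02%) is the background for each. Members and lists were chosen with earlier results of these data known. A share above the background therefore cannot show that a list changed more than other genes. Genes of cilia and flagella were called in both directions. Of 27 tested members of this list 4 rose and 3 fell. Of these 7 genes 6 passed the filter through one group only, so their separation was fixed by the filter, and Oseg4 is the exception. B9d1, a component of the transition zone at the base of cilia, was nearly absent from WT, at 0.0492, 0.0617 and 0.147 CPM. It reached 5.21, 8.62 and 6.31 CPM in the libraries labelled Cp190KO (log2 fold change 6.15, SE 0.50, adjusted p = 0.00318 by edgeR). BBS8, a member of the complex that carries proteins into cilia, rose from 0.0985, 0.432 and 0.0491 to 2.16, 2.52 and 3.88 CPM. Oseg2 and Oseg4, subunits of intraflagellar transport, rose as well, with log2 fold changes of 2.62 and 1.02. Oseg4 differed little among replicates, at 9.95, 11.2 and 10.3 CPM in WT and 21.6, 21.2 and 20.9 CPM in libraries labelled Cp190KO. Without replicate 3 labelled Cp190KO 1 member of the list was still called higher, B9d1, and 3 were called lower.

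The members that fell are components of sperm tails. Tektin-C, a filament protein of flagellar microtubules, stood at 32.2, 63.4 and 35.2 CPM in WT and at 0.799, 0.659 and 0.0554 CPM in libraries labelled Cp190KO (log2 fold change -6.40, SE 0.68, adjusted p = 0.00621). SdicA and Sdic3, copies of the sperm dynein intermediate chain gene on chromosome X, had the same values in every library. They stood at 10.4, 8.33 and 8.65 CPM in WT and had 0 counts in all 3 libraries labelled Cp190KO. Against a floor of 3 counts per library this is at least 56.2-fold lower. These copies are nearly identical in sequence and their reads could be assigned to either, so they are uncertain as 2 separate genes. Sdic2, another copy, did not pass the test (log2 fold change -0.17, adjusted p = 0.82). Dnaaf3, which helps to assemble the dynein arms of cilia, is outside the list and was among the 15 largest increases. It rose from 0.0492, 0.0617 and 0.197 to 14.1, 11.3 and 6.86 CPM (log2 fold change 6.59, SE 0.56, adjusted p = 0.00342). It passed the filter only through the libraries labelled Cp190KO, so its separation was fixed by the filter.

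**Figure D2:**
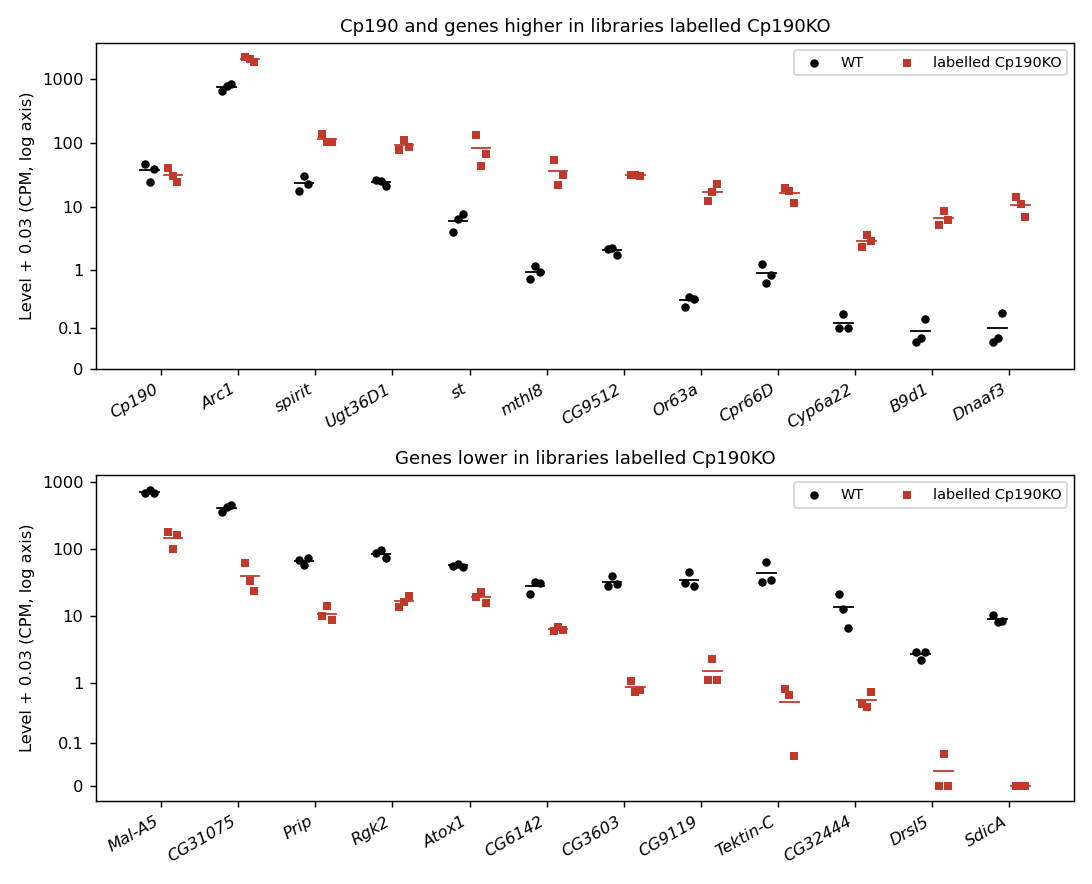
Level of Cp190 and 11 genes higher (top) and 12 genes lower (bottom) in libraries labelled Cp190KO, in CPM plus 0.03 on a log axis. Black circles are the 3 WT libraries, red squares the 3 libraries labelled Cp190KO, and bars the group means. Groups overlap for Cp190 and are apart for every other gene shown.

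Of 19 tested germline genes 2 rose and 1 fell. All 3 passed the filter through one group only, so they had to differ. osk, which directs assembly of the germ plasm in the egg, had 3 counts in all over the WT libraries and 117 over the libraries labelled Cp190KO. This was a 39.6-fold difference in summed counts, with a 95% counting interval from 13.2 to 195. Its levels were 1.83, 1.38 and 3.04 CPM in libraries labelled Cp190KO, low in comparison with most genes tested. vas, which codes for an RNA helicase of germ cells, rose from 0.788, 0.678 and 0.541 to 2.21, 2.46 and 3.32 CPM (log2 fold change 1.98, adjusted p = 0.0374). tut, a gene that acts in male germ cells, fell from 1.82, 1.85 and 1.87 to 0.282, 0.24 and 0.554 CPM. All 3 genes were at low levels in both groups, and vas was not called without replicate 3 labelled Cp190KO (adjusted p = 0.088). The piRNA pathway genes aub, armi and spn-E did not pass the test, with log2 fold changes of 0.41, -0.03 and 0.19.

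Genes of detoxification enzymes were called in both directions, more of them as higher. Cytochrome P450 enzymes, glutathione transferases (GST), UDP-glycosyltransferases and carboxylesterases together modify and clear small molecules such as plant toxins and insecticides. Taken as 4 families, a grouping made after their values were seen, they had 77 tested members, of which 9 rose and 1 fell (13% called). Of the 9, Cyp6a22, Cyp6a23, Ugt35A1 and alpha-Est1 passed the filter only through the libraries labelled Cp190KO and had to differ. Without replicate 3 labelled Cp190KO 6 were higher and 1 was lower, and Cyp6a23, GstD9 and Ugt35A1 were lost (adjusted p = 0.091, 0.10 and 0.080). Of 30 P450 genes 4 rose, and 3 of these lie side by side on chromosome 2R. Cyp6a22 rose from 0.0985, 0.185 and 0.0983 to 2.35, 3.65 and 2.93 CPM (log2 fold change 4.51, SE 0.47, adjusted p = 0.0050). Its neighbour Cyp6a17 rose from 3.25, 2.22 and 2.21 to 26.4, 52.5 and 17.5 CPM (log2 fold change 3.64, SE 0.46, adjusted p = 0.010). The next gene, Cyp6a23, rose from 0.492, 0.308 and 0.246 to 1.41, 3.11 and 3.76 CPM. Cyp6a17 and Cyp6a23 are close relatives, and reads that fit both could be split between them, so their separate values are uncertain. Cyp12a4, on another chromosome, rose to 17.5, 28.4 and 15.6 CPM from 3.89, 3.33 and 3.54 CPM. Cyp12b2, another P450 gene of the Cyp12 family, went the other way, from 11.1, 13.9 and 8.65 to 1.97, 1.8 and 0.609 CPM (log2 fold change -2.93, adjusted p = 0.0203).

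Of 26 GST genes 2 rose. GstS1, an abundant sigma class enzyme, stood at 134, 146 and 157 CPM in WT and at 304, 383 and 264 CPM in libraries labelled Cp190KO (log2 fold change 1.12, SE 0.16). GstD9 rose from a mean of 3.11 to 11.4 CPM. Of 11 UDP-glycosyltransferase genes Ugt36D1 and Ugt35A1 rose. Ugt36D1 was at 26, 25.7 and 21 CPM in WT and at 77.5, 110.1 and 85.7 CPM in libraries labelled Cp190KO, and was called with any library left out (log2 fold change 1.91, SE 0.19, adjusted p = 0.00428). Ugt35A1 varied more, at 3.15, 11.3 and 6.64 CPM against 0.492, 0.802 and 0.688 CPM in WT. alpha-Est1, 1 of 10 esterase genes, rose from 0.246, 0.555 and 0.393 to 3.29, 2.69 and 2.77 CPM.

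Glucose-methanol-choline (GMC) oxidoreductases are a family of flavin enzymes that includes glucose dehydrogenase. Of 6 tested members 2 rose and 1 fell. CG9512 had, with CG3603, the smallest adjusted p of all tested genes named here (9.9e-04). It stood at 2.17, 2.28 and 1.77 CPM in WT and at 31.9, 31.7 and 30 CPM in libraries labelled Cp190KO (log2 fold change 3.91, SE 0.23). The 3 replicates of each group were nearly equal, although replicates 1 and 2 labelled Cp190KO were far apart for long genes. Gld, the glucose dehydrogenase gene, rose from 1.63, 1.11 and 1.33 to 4.27, 6.77 and 4.82 CPM, and was not called without replicate 3 labelled Cp190KO (adjusted p = 0.076). CG6142 fell from 21.5, 32.6 and 30.8 to 6.06, 6.83 and 6.2 CPM (log2 fold change -2.15, SE 0.24, adjusted p = 0.00586).

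Extracellular proteases and receptors of the Toll pathway, which acts in immunity and in patterning of the embryo, were called in both directions. Of 23 tested members 3 rose and 1 fell. GNBP1 and modSP were no longer called without replicate 3 labelled Cp190KO (adjusted p = 0.083 and 0.094), while in that fit GNBP2 was called higher and Hayan lower. spirit, a serine protease upstream of the Toll ligand, stood at 18.1, 30.1 and 22.7 CPM in WT and at 136, 105 and 104 CPM in libraries labelled Cp190KO (log2 fold change 2.28, SE 0.23, adjusted p = 0.00428). ea, the protease that cleaves the Toll ligand in the embryo, rose from 0.788, 0.925 and 1.57 to 8.08, 10.5 and 4.15 CPM. It was the only called gene among 53 tested genes within 100 kb of Cp190, whose log2 fold changes had a median of 0.02. GNBP1, which helps to recognise bacteria, rose with a log2 fold change of 1.19 (adjusted p = 0.0307). modSP, an apical protease of the same cascade, fell from 4.14, 8.39 and 3.29 to 0.939, 0.479 and 0.221 CPM (log2 fold change -3.22, adjusted p = 0.0367). It passed the filter only through WT, so it had to differ. Of 13 tested antimicrobial peptide and Imd pathway genes 2 fell and none rose by edgeR, with 1 member higher at an unadjusted p under 0.05 and 1 called higher by DESeq2. Drsl5, a drosomycin-like peptide gene, had 156 counts over the WT libraries and 1 count over those labelled Cp190KO, a 154-fold difference with a counting interval from 27.2 to 6112. Drsl5 also passed the filter only through WT and had to differ. Tep2, a thioester protein that marks microbes, stood at 43.2, 79.8 and 81.6 CPM in WT and at 29.6, 23.1 and 17.7 CPM in libraries labelled Cp190KO (adjusted p = 0.0495). Tep2 was not called when replicate 3 labelled Cp190KO was left out (adjusted p = 0.15) and AttA, an attacin gene, was called higher, so 1 member was higher and 1 lower.

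Serpins are inhibitors of such proteases, and 2 of 15 tested serpin genes rose. Both passed the filter only through the libraries labelled Cp190KO, so they had to differ. Spn43Ad went from 0.788, 0.247 and 0.835 to 3.9, 7.19 and 7.25 CPM, and Spn47C from 0.394, 0.0617 and 0.59 to 4.18, 3.05 and 3.04 CPM. Neither was called without replicate 3 labelled Cp190KO (adjusted p = 0.064 and 0.082). Among hemocyte markers atilla rose, a surface protein known from lamellocytes, the blood cells that wrap parasites. It stood at 1.67, 1.23 and 0.786 CPM in WT and at 8.64, 18.1 and 9.74 CPM in libraries labelled Cp190KO (log2 fold change 3.30, SE 0.44, adjusted p = 0.0101). NimB2, a Nimrod family member in the same list, went the other way. It stood at 18.0, 21.7 and 15.4 CPM in WT and at 3.48, 6.47 and 1.61 CPM in libraries labelled Cp190KO, with groups that did not overlap, and missed edgeR's threshold (log2 fold change -2.26, adjusted p = 0.067). DESeq2 called 1 hemocyte marker higher and 1 lower. The summed level of the 18 hemocyte markers ranged from 178 to 197 CPM in WT and from 154 to 233 CPM in libraries labelled Cp190KO. The groups overlapped, and none of the 18 was at 0 throughout. In bulk tissue, fewer cells of a type and less RNA per cell cannot be told apart.

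Cuticle protein genes changed in both directions. Of 17 tested members 3 rose and 3 fell. Of these Cpr73D, TwdlC and Lcp3 passed the filter through one group only. TwdlC and Lcp3 were not called without replicate 3 labelled Cp190KO (adjusted p = 0.085 and 0.10). Cpr66D rose from 1.28, 0.617 and 0.835 to 20.0, 18.0 and 11.4 CPM (log2 fold change 4.16, SE 0.39, adjusted p = 0.00423). Cpr73D rose from 0, 0.37 and 0.147 to 11, 6.35 and 10.4 CPM. TwdlC had 3 counts over the WT libraries and 264 over those labelled Cp190KO, a ratio of 89.3 with a counting interval from 30.2 to 436. The members that fell were Lcp3, Cpr65Ec and Cpr78E. Cpr65Ec fell from 11.4, 19.2 and 9.68 to 2.44, 1.56 and 1.77 CPM, and Cpr78E from 13.2, 13.6 and 10.2 to 2.82, 1.92 and 3.93 CPM. Lcp3, a larval cuticle protein, was uneven in WT, at 16.6, 5.37 and 2.36 CPM, with 2 counts in all in libraries labelled Cp190KO. Tracheal and epidermal markers, the tissue that makes cuticle, summed to 123 to 143 CPM in WT and to 134 to 156 CPM in libraries labelled Cp190KO. None of its 11 tested markers was called by edgeR or by DESeq2, and 1 was higher at an unadjusted p under 0.05.

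**Figure D3:**
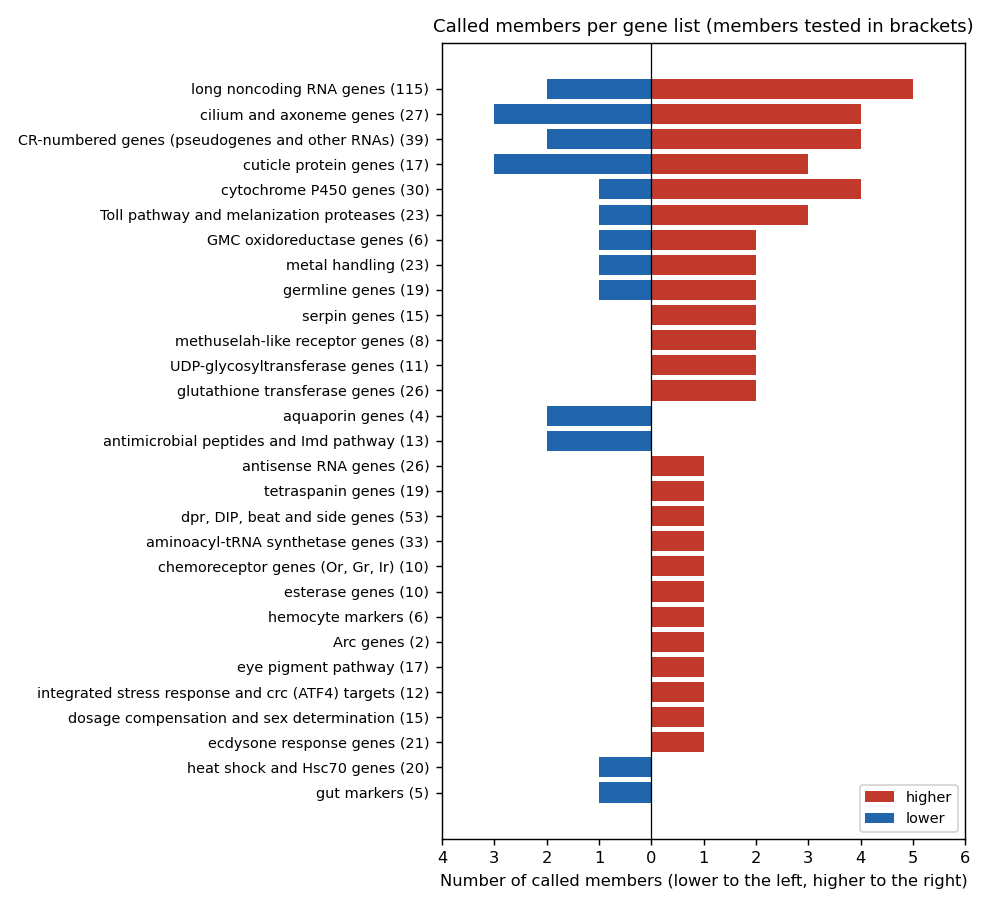
Number of called members in each gene list with at least 1 called gene, apart from CG-numbered genes, with the number of members tested in brackets. Bars to the right (red) count genes higher and bars to the left (blue) genes lower in libraries labelled Cp190KO. The largest numbers belong to long noncoding RNA genes, 5 higher and 2 lower of 115, and to cilium and axoneme genes, 4 higher and 3 lower of 27.

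Cell surface receptors were among the largest increases. mthl8, a G protein-coupled receptor of the Methuselah-like family, stood at 0.739, 1.17 and 0.934 CPM in WT and at 53.6, 22.3 and 31.6 CPM in libraries labelled Cp190KO (log2 fold change 5.24, SE 0.43, adjusted p = 0.00318). A relative, mthl3, rose from 11.7, 12.5 and 14.2 to 27.9, 35 and 33.4 CPM, so 2 of the 8 tested members rose and none fell. mthl3 was not called without replicate 3 labelled Cp190KO (adjusted p = 0.087). Or63a, an odorant receptor, rose from 0.246, 0.37 and 0.344 to 12.3, 16.8 and 22.9 CPM (log2 fold change 5.74, SE 0.39, adjusted p = 0.00206). It was the only gene called by edgeR among 10 tested odorant, gustatory and ionotropic receptors, of which DESeq2 called 1 higher and 1 lower. Or63a passed the filter only through the libraries labelled Cp190KO, so it had to differ. dpr16, of a family of immunoglobulin domain proteins that label synaptic partners, rose from 25.1, 17.5 and 19.8 to 58.8, 81.9 and 82.4 CPM. It was the only member called by edgeR among 53 tested dpr, DIP, beat and side genes, of which DESeq2 called 3 higher. Tsp42Eg, 1 of 19 tetraspanin genes, rose from 0.886, 0.925 and 0.835 to 2.4, 5.51 and 4.82 CPM, and was not called without that replicate (adjusted p = 0.11). Like Or63a, it passed the filter only through the libraries labelled Cp190KO. DESeq2 called 2 tetraspanin genes higher.

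Transport proteins for metals and water also changed. MtnA, a metallothionein that binds copper and other metals, stood at 261, 366 and 205 CPM in WT and at 778, 872 and 559 CPM in libraries labelled Cp190KO (log2 fold change 1.41, adjusted p = 0.0379). Zip102B, a zinc transporter gene on chromosome 4, rose from 31.4, 29.9 and 36.7 to 68.2, 69.1 and 62.9 CPM. Atox1, a copper chaperone, fell from 56.1, 59.8 and 55.0 to 19.4, 22.6 and 15.6 CPM (log2 fold change -1.57, SE 0.19, adjusted p = 0.00727). The other 20 of 23 tested metal handling genes were not called. Neither MtnA nor Zip102B was called without replicate 3 labelled Cp190KO (adjusted p = 0.063 and 0.077), so none was higher and 1 was lower. Of 4 tested aquaporin genes, which code for water and glycerol channels, 2 fell. Prip fell from 67.9, 57.2 and 74.8 to 10.1, 14.1 and 8.8 CPM (log2 fold change -2.60, SE 0.23, adjusted p = 0.00363). Eglp2 fell from 5.02, 8.63 and 5.85 to 1.78, 2.28 and 1.99 CPM, and was not called without replicate 3 labelled Cp190KO (adjusted p = 0.13). st, which codes for the scarlet transporter of eye pigment precursors, rose from 4.04, 6.41 and 7.86 to 135, 43.9 and 66.9 CPM. It was the only called gene of 17 tested eye pigment genes (log2 fold change 3.75, SE 0.49, adjusted p = 0.0126).

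Among genes of metabolism, Mal-A5, a maltase gene from the list of gut markers, was the most abundant gene that fell over 4-fold. It stood at 680.0, 755 and 675 CPM in WT and at 178, 99.8 and 159 CPM in libraries labelled Cp190KO (log2 fold change -2.27, SE 0.22, adjusted p = 0.00428). It made up most of the summed level of the 40 gut markers, which was 719 to 817 CPM in WT and 138 to 222 CPM in libraries labelled Cp190KO. Only 5 of the 40 were tested, and 13 of them, trypsin, Jonah and lysozyme genes among them, had 0 counts in all 6 libraries. The other 4 tested gut markers were not called by edgeR. Mal-A4, another maltase gene, stood at 1.03, 1.60 and 1.28 CPM in WT and at 0.235, 0 and 0 CPM in libraries labelled Cp190KO (adjusted p = 0.083). Mal-B2, a further maltase gene, stood at 29.1, 47.5 and 36.5 CPM in WT and at 25.9, 21.7 and 13.3 CPM in libraries labelled Cp190KO (log2 fold change -0.89, adjusted p = 0.25). The groups did not overlap for either. Amy-p and Amy-d, amylase genes, had log2 fold changes of 0.37 and 0.67. At an unadjusted p under 0.05 3 of the 5 were lower and 1 higher, and DESeq2 called 2 lower and none higher. CG31075 fell from 360.1, 418 and 452 to 62.9, 33.1 and 24 CPM (log2 fold change -3.36, SE 0.36, adjusted p = 0.0067).

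The 15 largest decreases among genes with a mean log2 CPM of 1 or more included, beside the genes above, CG7408, CG3603, CG32444, CG9119, acs, CG6280, thw, flip and FBgn0040001, an identifier with no symbol in the tables used. CG3603 fell from 28.3, 39.6 and 30.2 to 1.08, 0.719 and 0.775 CPM (log2 fold change -5.23, SE 0.30, adjusted p = 9.9e-04). CG9119 fell from 31.7, 45.3 and 28.4 to 1.13, 2.28 and 1.11 CPM (log2 fold change -4.55, SE 0.38). All of these genes except acs, CG6280, thw, flip and FBgn0040001 were called with any library left out. But CG7408, CG32444, CG6280 and flip passed the filter only through WT, so they had to differ. The fits with a library left out used the same filter. The 15 largest increases also included CG13949, CG18549, CG6470, CG17047 and CG1077. CG13949 rose from 0.148, 0.185 and 0.246 to 6.62, 5.15 and 5.76 CPM (log2 fold change 4.87, SE 0.38, adjusted p = 0.00318). CG18549 rose to 79.9, 96.5 and 70.0 CPM from an uneven WT level of 2.61, 1.36 and 8.11 CPM. CG13306 and CG17681 had 0 counts in all WT libraries, and were at least 16.2-fold and 8.44-fold higher in libraries labelled Cp190KO, against a floor of 3 counts per library. CG1924 had 1 count over the WT libraries and 173 over those labelled Cp190KO (ratio 176, counting interval 31.1 to 6972), and CG6790 had 2 and 160 (ratio 81.2, 22.1 to 676). CG14036 and CG13032 went the other way, with 128 and 124 counts over the WT libraries and 3 counts each over those labelled Cp190KO. CG18549, CG13306 and CG13032 were not called without replicate 3 labelled Cp190KO (adjusted p = 0.072, 0.078 and 0.068). CG-numbered genes, which have no name of their own, accounted for 50 of the higher and 37 of the lower genes, out of 2609 tested. Of these, 22 of the higher genes entered the test only through the libraries labelled Cp190KO and 10 of the lower genes only through WT. The former include CG13949, CG6470, CG17047, CG1077, CG13306, CG17681, CG1924 and CG6790. The latter include CG7408, CG32444, CG6280, CG14036 and CG13032. The separation of all these genes was fixed by the filter, so they had to differ.

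Noncoding genes were called in both directions. Of 115 tested long noncoding RNA genes 5 rose and 2 fell, and of 26 antisense RNA genes 1 rose. Other counts of the long noncoding genes had more of them lower: DESeq2 called 6 higher and 10 lower, and at an unadjusted p under 0.05 10 were higher and 16 lower. The counts were 2 higher and 2 lower without replicate 3 labelled Cp190KO. lncRNA:CR40469, on chromosome X, was the most abundant of these, at 30.7, 49.8 and 38.0 CPM in WT and at 290.3, 643 and 417 CPM in libraries labelled Cp190KO (log2 fold change 3.51, SE 0.34, adjusted p = 0.0051). lncRNA:roX2, an RNA of the complex that raises transcription of the male X chromosome, rose from 27.8, 17.3 and 22.1 to 64.0, 53.1 and 77.9 CPM (log2 fold change 1.54, adjusted p = 0.0198). Without that replicate it was not called (adjusted p = 0.084), and neither were lncRNA:CR32368, lncRNA:CR44657 and lncRNA:CR46123 (0.053, 0.077 and 0.082). The partner of lncRNA:roX2, lncRNA:roX1, varied widely, at 234, 192 and 189 CPM in WT and at 349.6, 55.3 and 208 CPM in libraries labelled Cp190KO, and did not pass the test. lncRNA:CR32368, lncRNA:CR44138 and lncRNA:CR44657 rose from WT levels under 2 CPM, to 3.82 to 7.66, 1.26 to 1.5 and 1.08 to 2.27 CPM. lncRNA:CR43242 fell from 13, 18.4 and 20.4 to 2.77, 3.17 and 4.1 CPM, and lncRNA:CR46123 from 1.72, 2.59 and 1.62 to 0.329, 0.0599 and 0.332 CPM. Of these, lncRNA:CR44138, lncRNA:CR44657 and lncRNA:CR46123 passed the filter through a single group only and had to differ. The antisense gene asRNA:CR43259 rose from 0.542, 1.05 and 0.639 to 6.72, 5.21 and 2.6 CPM. The median log2 fold change of 1480 tested genes on chromosome X was 0.03, against 0.08 over all tested genes. Of 41 tested genes annotated as pseudogenes 4 rose and 2 fell. The 14.6% called stands beside 2.29% of 8327 protein-coding genes and 5.85% of the fifth of all tested genes with the lowest level, but CR33294, CR18228 and CR44383 passed the filter only through the libraries labelled Cp190KO and had to differ. Without replicate 3 labelled Cp190KO 4 CR-numbered genes were also called higher and 2 lower. CR33294 rose from 0.0985, 0.123 and 0.0491 to 14.7, 4.79 and 9.13 CPM (log2 fold change 6.66, SE 0.64, adjusted p = 0.00428). CR18228 and CR44383 rose from under 0.5 CPM to 3.32 to 5.99 and 2.44 to 2.75 CPM. CR43482 fell from 204, 249 and 258 to 91.8, 77.8 and 79.7 CPM. Pseudogenes can share reads with the genes they derive from, and whether they do here was not tested.

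Arc1, which codes for a capsid-forming protein that carries RNA between cells, had the highest mean level of the genes called. It rose from 641, 778 and 841 to 2187, 2008 and 1791 CPM (log2 fold change 1.41, SE 0.15, adjusted p = 0.00557). CR10102, an annotated pseudogene that ends 135 bases away on the same strand, rose from 304, 335 and 383 to 921, 796 and 744 CPM. Arc2 did not pass the test, with a log2 fold change of 0.28. Whether reads of Arc1 were counted on CR10102 was not tested. Arc1 and CR10102 were 1 of 15 pairs of neighbouring tested genes that were both called. Of 401 tested genes next to a called gene 28 were called (6.98%), against 2.40% of all tested genes with a position, and 13 of the 15 pairs moved in the same direction. Without replicate 3 labelled Cp190KO 16 of 226 such genes were called (7.08%), against 1.35%. No pair overlapped, and the gap between the genes was between 89 and 30099 bases. The pairs include Sdic3 with SdicA, Cyp6a17 with Cyp6a23, and Arc1 with CR10102, which may share reads. A single signal may thus be counted on both genes of such a pair, and the shares without these pairs were not computed. Many members of the pairs also passed the filter through one group only and had to differ. Through libraries labelled Cp190KO these were CG13692, BBS8, CG7296, CG17108, CG6431, CG6337, CtsL2, Cyp6a22 and Cyp6a23. Through WT they were Sdic3, SdicA, CG32444, CG31248 and tut. The shares without these genes were not computed either.

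Some of these pairs held genes of different kinds. On chromosome 2R Rgk2, a small GTPase gene, fell from 87.3, 96.2 and 72.8 to 13.9, 16.3 and 20.3 CPM (log2 fold change -2.34, SE 0.20, adjusted p = 0.00363). Pepck2, a phosphoenolpyruvate carboxykinase gene 3835 bases away, fell from 15.9, 17.9 and 28.6 to 6.06, 5.15 and 7.75 CPM. On chromosome 3L CG32444 fell from 21.3, 12.8 and 6.58 to 0.47, 0.419 and 0.72 CPM beside Atox1, which lies 1934 bases away. On chromosome 2L CG31955 rose from 2.81, 2.9 and 3.73 to 30.9, 34.8 and 25.5 CPM (log2 fold change 3.27, SE 0.25, adjusted p = 0.00318). CG2818, which starts 254 bases away on the other strand, rose from 63.1, 68.6 and 65.4 to 124, 126 and 142 CPM. The pair is high in all libraries labelled Cp190KO, although CG2818 is by far the more abundant gene in WT. CG13692 and BBS8 rose together, as did CG6337 and CtsL2, and CG7296, CG17108 and CG6431 in a row. CkIIalpha-i3 and CG13896 fell together, and so did CR42875 and CG31248. The pairs of opposite direction were CG31676 (lower) with twit (higher), and tut (lower) with CG8012 (higher).

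Called genes lay on all major arms. The share called was 3.37% of 1663 tested genes on chromosome 3L, 2.46% on 3R, 2.41% on 2L, 2.22% on 2R and 1.42% of 1480 on X. On 3L more genes were lower (31) than higher (25), and on 3R, where Cp190 lies, 34 were higher and 18 lower. Chromosome 4, with 79 tested genes, had a median log2 fold change of 0.42, but this was -0.16 without replicate 1 labelled Cp190KO and 0.77 without replicate 2. The genes of chromosome 4 had a median exonic length of 4385 bases, against 2139 to 2454 bases on the other arms.

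Single genes of several other lists were called. crc, the fly ATF4 that drives genes of the integrated stress response, rose from 35.1, 29.0 and 33.3 to 77.6, 57.1 and 83.0 CPM (log2 fold change 1.16, adjusted p = 0.0229). The other 11 tested genes of that list, its targets among them, were not called by edgeR, and the median of the list was 0.07. MetRS-m, the mitochondrial methionyl-tRNA synthetase, rose from 24.5, 23.5 and 23.2 to 49.3, 52.9 and 49.9 CPM, and was the only called gene of 33 tested synthetase genes. MsrA, a methionine sulfoxide reductase induced by ecdysone, rose from 83.2, 91.4 and 101 to 172, 196 and 153 CPM, the only called gene of 21 ecdysone response genes. Hsp67Bc, a small heat shock protein gene, fell from 396, 417 and 559.5 to 223, 134 and 162 CPM, the only called gene of 20 heat shock genes. None of these 4 was called without replicate 3 labelled Cp190KO, with adjusted p-values of 0.11, 0.072, 0.050 and 0.094. By DESeq2 2 genes were higher in each of the stress response, synthetase and ecdysone lists, and 1 was lower in the heat shock list.

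No gene was called in the lists that define the cells of the CNS. By edgeR, none of 24 neuronal genes, 22 neuroblast genes, 13 temporal factors of neuroblasts, 20 glial genes, 19 transmitter genes, 39 neuropeptide genes, 27 channel genes and 9 nicotinic receptor subunits was called. At an unadjusted p under 0.05 none of the neuronal, neuroblast and temporal genes passed, while 7 glial genes were higher and 3 lower, and 10 neuropeptide genes were higher and 1 lower. Of the transmitter genes 5 were higher and 1 lower at this level, and 1 channel and 1 nicotinic receptor gene were higher. DESeq2 called no neuronal, neuroblast, temporal, channel or nicotinic receptor gene. It called 3 glial genes higher, 2 transmitter genes higher and 1 lower, and 3 neuropeptide genes higher and 1 lower. Of the glial genes, Gs2, a glutamine synthetase, stood at 188, 116 and 201 CPM in WT and at 294, 543 and 368 CPM in libraries labelled Cp190KO (log2 fold change 1.25, adjusted p = 0.098). alrm, a marker of astrocyte-like glia, was at 114, 123 and 150 CPM in WT and at 206, 310.0 and 192 CPM in libraries labelled Cp190KO (adjusted p = 0.099). Both lay above WT in all 3 libraries and missed the threshold. repo, the glial identity factor, had a log2 fold change of -0.38 (adjusted p = 0.36).

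Differences between replicates set what these lists could show. The summed level of the 24 neuronal genes was 2123, 1516 and 1863 CPM in WT, and 4120, 965 and 2423 CPM in libraries labelled Cp190KO. Replicate 1 lay above all WT libraries and replicate 2 below them. The neuronal genes had a median exonic length of 8524 bases, against 2252 over all tested genes, and replicates 1 and 2 were also at opposite ends for long genes. The part of that difference in the list was not tested. The median log2 fold change of the neuronal genes was 0.47, and it ran from -0.16 to 0.86 when single libraries were left out. For neuroblast genes the sums were 2457, 1835 and 2154 CPM in WT and 3624, 1182 and 2099 CPM in libraries labelled Cp190KO. Replicate 1 was again above all WT libraries and replicate 2 below them.

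**Figure D4:**
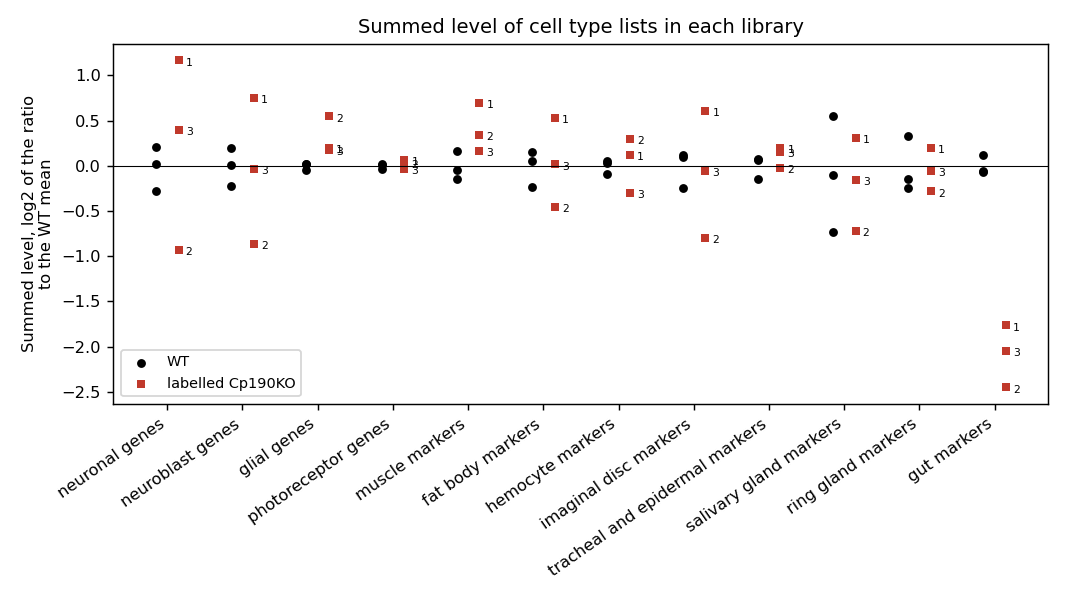
Summed level of 12 cell type lists in each library, as log2 of the ratio to the WT mean. Black circles are the WT libraries, and red squares with replicate numbers are the libraries labelled Cp190KO. Neuronal and neuroblast sums of replicates 1 and 2 lie on opposite sides of WT, while gut markers, of which Mal-A5 makes up most, lie below WT in all 3. The gene lost makes up most of the ring gland sum.

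Genes of chromosome architecture and body patterning were not called either. None of 18 insulator and architectural protein genes was called by edgeR or DESeq2, with 2 higher at an unadjusted p under 0.05. CTCF had a log2 fold change of 0.35 (adjusted p = 0.66), su(Hw) of 0.56 (adjusted p = 0.36) and BEAF-32 of 0.03 (adjusted p = 0.96). None of 15 cohesin and condensin genes and none of 21 Polycomb and Trithorax genes was called by either tool, with 0 and 1 at an unadjusted p under 0.05. Of 6 tested Hox genes, which set segment identity along the nerve cord, none was called by edgeR or DESeq2, and 1 was higher at an unadjusted p under 0.05. That gene was Antp, at 10.5, 5.43 and 7.96 CPM in WT and at 42.5, 7.79 and 24.4 CPM in libraries labelled Cp190KO (log2 fold change 1.64, adjusted p = 0.30). Its groups overlapped, since replicate 2 labelled Cp190KO lay within WT. Abd-B, Ubx and abd-A had log2 fold changes of 0.48, 0.10 and 0.24.

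The medians of the housekeeping lists shifted little, with log2 fold changes between -0.20 and 0.07. Single members moved further, down to -3.47 in the oxidative phosphorylation list. No gene was called by edgeR among 86 cytoplasmic ribosomal protein genes, 71 mitochondrial ribosomal protein genes, 69 oxidative phosphorylation genes, 37 cell cycle and DNA replication genes and 35 proteasome genes. At an unadjusted p under 0.05 these lists had 3, 2, 4, 2 and 12 genes, and DESeq2 called 0, 0, 1, 1 and 0. The proteasome, which degrades proteins tagged with ubiquitin, was the most uniform. Its 35 tested genes had a median log2 fold change of -0.20, and the 3 libraries of each group did not overlap for 17 of them, all lower in libraries labelled Cp190KO. Over all tested genes 9.92% lay below WT in this way. The summed level of the list was 16198 to 16327 CPM in WT and 12738 to 15290 CPM in libraries labelled Cp190KO. Its median was between -0.24 and -0.21 under the other scalings, filters and fits, and between -0.27 and -0.18 when single libraries were left out. Prosalpha6, a subunit of the catalytic core, had the smallest adjusted p in the list (0.095), with a log2 fold change of -0.46.

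Further lists without a call by edgeR were 26 optic lobe factors, 9 photoreceptor genes, 10 clock genes, 45 monoamine and peptide receptors, 11 E(spl) genes, 5 odorant binding proteins, 6 histone genes and 19 small nucleolar RNAs. At an unadjusted p under 0.05 these had 3, 0, 2, 3, 0, 0, 2 and 0 genes, and DESeq2 called 3, 0, 0, 2, 0, 0, 1 and 0. Markers of other tissues were not called either, in lists of 21 muscle, 8 fat body, 10 imaginal disc, 6 salivary gland and 4 ring gland genes. At an unadjusted p under 0.05 these had 5, 1, 1, 0 and 1 genes, the muscle genes all higher and the others all lower. DESeq2 called 2 muscle genes, both higher, and none of the others. The summed muscle markers were at 189 to 235 CPM in WT and at 234 to 339 CPM in libraries labelled Cp190KO, and the groups overlapped. Ring gland genes were uneven in WT. sad stood at 3.84, 7.46 and 102.9 CPM in WT and at 5.40, 2.63 and 1.99 CPM in libraries labelled Cp190KO. spok, dib and jhamt were also highest in WT replicate 3, and ouib was not. Most of the ring gland sum came from the gene lost, which entered the list through a synonym match. Mitochondrially encoded genes were not tested, since none passed the filter.

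The WT libraries of the other experiment in the series, which were made and sequenced separately, give a second look at which side of each difference is usual. On a scale set over all 12 libraries, the 3 other WT libraries lay below all libraries labelled Cp190KO for 111 of the 119 higher genes (93.3%). They lay above all libraries labelled Cp190KO for 85 of the 88 lower genes (96.6%). Over all tested genes they lay below for 17% and above for 14.8%. Compared with the WT libraries of this experiment, all 3 lay further toward Cp190KO for 28 of the higher genes (23.5%) and 27 of the lower genes (30.7%), against 22.4% and 19.7% of all tested genes. These WT libraries were not part of the test, and shared its tissue and stage. The called genes, however, were chosen by the same libraries labelled Cp190KO. Of them 47 higher genes entered the test only through those libraries, and 22 lower genes only through WT. A high share on the WT side was thus favoured by the choice of genes, and all tested genes are not a matched background.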

How the data were processed

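The authors mapped the reads of each library to the dm6 genome and FlyBase gene models with Micmap and counted them with HTSeq 0.9.1, and the deposited values are whole-number counts for 17510 genes, with no normalization. The strand option is not given in the sources used here. Symbols were matched for 17405 identifiers, and positions come from an Ensembl annotation of dm6. Reads assigned to no gene (23.0% to 28.6% of all reads, on genes or not) were left out of library sizes. They include the ambiguous reads (3.59% to 3.99% of all reads).

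Genes that reached 1 CPM in 3 or more of the 6 libraries were tested with edgeR 4.0.16 (TMM scaling, robust quasi-likelihood test, two-sided) in R 4.3.3, with Benjamini-Hochberg adjustment over all 8599 genes. The SE is the log2 fold change divided by the square root of F. CPM values use TMM scaling over the 6 libraries. The BCV was 0.272. On simulated data with 200 changed genes among 8599, 89.3% of 4-fold and 30.8% of 2-fold changes were recovered, and 7.2% of calls were unchanged genes. Summaries were made in Python 3.11.15 with scipy 1.17.1, numpy 2.4.6 and pandas 2.3.3.

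Genes were named by rule: the 15 largest increases and decreases among called genes with separate groups and a mean log2 CPM of 1 or more, called list members (the 4 largest each way in families with over 10), called genes within 100 kb of Cp190, and adjacent called genes. Members and lists were chosen with earlier results of these data known. Other genes named were chosen after their values were seen. Alternatives were RLE factors, library sizes only, no filter beyond 1 count, filterByExpr, DESeq2 1.42.0, a block for replicate number, a fit of all 12 libraries together, other thresholds and each library left out. Promoter sequences were not analysed here. The columns of the other experiment entered only the fit over 12 libraries and the comparison with its WT.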

Additional observations from a re-analysis of the deposited data

How the results depend on the processing

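Genes were higher (119) and lower (88) in libraries labelled Cp190KO in numbers within 1.5 times of these under RLE factors, library sizes only, no filter beyond 1 count, filterByExpr and with no fold change limit. DESeq2 called 248 higher and 192 lower, and one fit over all 12 libraries 192 and 162. A test against a fold change of 1.5 called 66 and 45, and an adjusted p under 0.01 left 36 and 28. With single libraries left out, 27 to 262 genes were higher and 24 to 151 lower. Without WT replicate 1, 2 or 3 the counts were 31, 28 and 27 higher and 27, 27 and 24 lower, with fewer samples in the fit. Without Cp190KO replicate 1 they were 112 and 92. No called gene changed sign in these fits. Deviations from the group means of libraries with the same replicate number correlated at 0.05, 0.48 and -0.01, so the numbers were not taken to pair the samples. With a block for replicate number 51 genes were higher and 38 lower, and 88 of the 207 called genes were still called. Of 107 named called genes, between 39 and 107 were still called under each scaling, filter, tool and left-out library. The median log2 fold change of all genes lay between -0.03 and 0.08 over these fits. Depth limits genes near the floor of 0.141 to 0.185 CPM, where a library holds 3 counts. In simulated data with 3 libraries a group 30.8% of 2-fold changes were recovered, and the part of depth in this was not tested.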

Other observations

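Called genes outside every functional list (71 higher and 67 lower) included several of known function, chosen here after their values were seen. Of genes that code for membrane and matrix proteins, SPARC, a calcium-binding protein of basement membranes, rose with a log2 fold change of 1.13. path, an amino acid transporter of the growing nervous system, rose by 1.36, and Lamp1, a lysosomal membrane protein, by 0.72. dia, a formin that builds actin filaments, rose by 1.40. Of genes for metabolic enzymes, LKRSDH, which breaks down lysine, had a log2 fold change of -0.93, and Pbgs, an enzyme of heme synthesis, one of -1.06. Pcyt1, which takes part in phosphatidylcholine synthesis, was at -0.97. Usf, a basic helix-loop-helix factor, was at -1.59, and gsb-n, a paired-type homeodomain factor of the nerve cord, at -2.14. All of these passed edgeR's test at an adjusted p under 0.05 over all tested genes, with groups that did not overlap.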
